A study of Mus musculus with 4 samples.

Results

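Glucocorticoid-responsive genes were followed in the bone marrow of myeloma-bearing mice after treatment with PM (purinostat mesylate), an inhibitor of class I and IIb histone deacetylases. The set holds 6 of the 32285 genes in the files: Nr3c1, Fkbp5, Tsc22d3, Klf9, Sgk1 and Ddit4. They were listed by name, no measured value enters the rule, and earlier results of these data were known when they were listed. The mice were C57BL/KawRij, 6 weeks old when 5TGM1-luc mouse myeloma cells were injected into the tail vein. After 3 weeks they received vehicle or PM at 10 mg/kg, and marrow was taken at 24 h. Each of the 4 libraries came from 1 mouse, so n = 2 per group throughout, and all 4 mice carried the myeloma, so no tumor-free or untreated marrow is part of the comparison. The question here is how mRNA of these genes differed between PM and vehicle in each marrow cell type. No steroid was given, and corticosterone was not measured in these files.

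Glucocorticoids such as corticosterone enter the cell and bind the glucocorticoid receptor, which is held in the cytoplasm by heat shock protein chaperones. The bound receptor moves to the nucleus, attaches to response elements in DNA, and switches genes on or, often through other factors, off. In lymphocytes this signal restrains growth and can kill, which is why dexamethasone is a backbone drug in myeloma, while in neutrophils it prolongs survival. The same target genes also answer to other inputs, including hypoxia, cell stress and FoxO factors.

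The glucocorticoid response element is a palindrome, the hexamer AGAACA, then any 3 letters and then its reverse complement. To show what the start sites of these genes look like, 300-base RefSeq windows of the GRCm38.p6 build, 250 bases before to 50 after each start, were searched on both strands. The 6 genes had 12 such windows, 6 for Sgk1, 3 for Tsc22d3, 1 each for Fkbp5, Klf9 and Ddit4 and 0 for Nr3c1. The whole palindrome was in 3 of all 32851 windows (0.00913%), and 1 of these belonged to Sgk1, where it began 189 bases before the start. The single hexamer AGAACA, which is part of the palindrome, was in 19% of all windows and in 4 of the 12. The hypoxia core ACGTG was in 19.6% of all windows and in 4 of the 12, the E-box CACGTG, which contains it, in 7.15% and 2, and the FoxO letters TGTTTAC in 3.65% and 1 (Klf9). TGACGTCA (1.79% of all windows) and TGATGCAA (0.895%) were in none of the 12. The parts of 4 windows outside annotated exons are printed in the direction of transcription, for the 3 genes that passed the test in some cell type and for Klf9. Capitals mark the palindrome in Sgk1 (chr10:21993640-21993889, plus strand), ACGTG in Ddit4 (chr10:59951835-59952020, minus strand), the reverse complement of TGTTTAC and then ACGTG in Klf9 (chr19:23140976-23141225, plus strand), and the reverse complement of AGAACA in Tsc22d3 (chrX:140600660-140600772, minus strand). A match describes letters in a window and not a bound site.
Sgk1: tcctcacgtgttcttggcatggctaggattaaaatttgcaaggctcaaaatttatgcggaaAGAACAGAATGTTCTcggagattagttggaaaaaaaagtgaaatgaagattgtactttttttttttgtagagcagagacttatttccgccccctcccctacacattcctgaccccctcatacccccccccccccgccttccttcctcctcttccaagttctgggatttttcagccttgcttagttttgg
Ddit4: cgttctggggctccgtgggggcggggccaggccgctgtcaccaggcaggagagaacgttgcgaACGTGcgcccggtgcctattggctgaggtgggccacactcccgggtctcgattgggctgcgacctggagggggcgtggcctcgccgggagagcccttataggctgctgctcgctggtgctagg
Klf9: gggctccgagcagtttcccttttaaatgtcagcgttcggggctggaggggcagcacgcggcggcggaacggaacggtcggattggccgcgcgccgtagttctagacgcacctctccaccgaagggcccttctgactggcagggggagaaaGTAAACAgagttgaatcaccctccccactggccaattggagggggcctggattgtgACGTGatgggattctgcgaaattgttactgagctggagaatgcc
Tsc22d3: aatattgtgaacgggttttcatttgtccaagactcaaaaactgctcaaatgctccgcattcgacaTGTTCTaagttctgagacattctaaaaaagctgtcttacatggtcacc

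The libraries held 69828595 to 109447030 UMIs (unique transcript molecules) in 8242 to 13848 barcodes, of which 7826 to 13387 cells were kept. Any 2 libraries shared 18 to 39 cell barcodes. Clustering gave 30 clusters, 29 of which were named from marker genes as 12 cell types, and the neutrophils were split into 3 stages and the B cells into 2. A stage was the marker list with the highest mean log2 ratio to the other clusters of the type. That score was -0.27 in cluster 2 (immature neutrophils), -0.046 in cluster 3 (mature neutrophils) and 0.029 in cluster 18 (mature B cells). Their stage names therefore rest on lower scores of the other stage lists and not on raised markers of their own. Names stand for cells that resemble the type by its markers, and the suffix "-like" is left out below. The remaining cluster, of 265 cells with B cell and neutrophil markers together, was 89.4% called doublets and was left unnamed. CAR cells (CXCL12-abundant reticular stroma) and megakaryocytes were the sparsest types, with 36 to 88 and 14 to 40 cells per mouse, and the DC cluster was led by Siglech, a plasmacytoid marker. Genes of a 10-gene neutrophil list made up 176 to 255 of each 1000 UMIs in CAR cells and 143 to 207 in macrophages. In B cells they made up 13.4 to 23.6. Macrophages had a median of 818 UMIs per cell, and 21.5% of them were called doublets.

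Levels are CPM, the UMIs of a gene per 1000000 UMIs of all genes in the summed cells of 1 type and mouse. Folds are log2 changes, PM against vehicle, ± SE from edgeR's quasi-likelihood test, which also scales libraries for composition. A change counts when the Benjamini-Hochberg adjusted p is under 0.05 and the log2 change is over 0.5 in size. Across the 12 types, 66 of the 72 gene and type pairs passed the filter on low counts, 0 were called higher (0.953% of all genes tested were) and 1 was called lower (1.52%, against 0.458% of all genes). At an unadjusted p under 0.05, 7 pairs were higher (10.6%, against 7% of all genes) and 15 were lower (22.7%, against 5.17%). DESeq2, the second tool, also called 0 higher and 1 lower, but a different pair (Klf9 in place of Ddit4, both in mono&prog). The PM mice lay above both vehicle mice in 15 tested pairs (22.7%, against 25.5% of all genes) and below both in 18 (27.3%, against 16.2%), and the median log2 change of the 66 was -0.0022. With no filter on low counts 1 pair was called higher and 11 lower, but more of all genes were called in mono&prog then too. No share over all genes stands beside this count, so it is not read as a result about the 6 genes. In the 5 stages all 30 pairs were tested, 2 were called higher (6.67%, against 3.62% of all genes) and 1 lower (3.33%, against 1.62%). At an unadjusted p under 0.05, 5 stage pairs were higher (16.7%, against 11.8%) and 4 lower (13.3%, against 8.91%). The groups did not overlap in 11 stage pairs with PM higher (36.7%, against 28.4%) and 6 with PM lower (20%, against 20.1%). The 6 pairs that were not tested were Klf9 in macrophages and plasma cells, Sgk1 in megakaryocytes and plasma cells, and Ddit4 in CAR cells and megakaryocytes.

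Nr3c1 encodes the glucocorticoid receptor itself. Its mean level over the 4 mice (CPM ± SD) ran, from highest to lowest, in B cells (175 ± 5.97), T and NK cells (171 ± 22.8), DC (135 ± 6.47), CAR cells (133 ± 40.6), macrophages (119 ± 8.17), mono&prog (119 ± 9.51), neutrophils (118 ± 8.75), eosinophil/basophil prog (98.6 ± 9.17), erythroid&prog (86.01 ± 4.29), plasma cells (83.5 ± 4.11), HSPC (73.1 ± 2.23) and megakaryocytes (48.1 ± 28.4). T and NK cells did not overlap with DC, the next type, nor neutrophils with eosinophil/basophil prog, these with erythroid&prog, or plasma cells with HSPC, and the other neighbours overlapped. The receptor's mRNA did not pass the test in any type or stage, with log2 changes from -0.26 to 1.00 and a lowest adjusted p of 0.508 in the types (edgeR quasi-likelihood test). At an unadjusted p under 0.05 it was higher in 1 type, CAR cells. In CAR cells the values were 92.1 and 105 CPM with vehicle and 160.5 and 174 CPM with PM. The PM mice were higher there with no overlap, but the change of 0.82 ± 0.32 rested on few cells (adjusted p = 0.646). In T and NK cells the values were 172 and 202 CPM with vehicle and 149 and 160.4 CPM with PM, with both PM mice lower (-0.26 ± 0.14, adjusted p = 0.508). In neutrophils, the type with the most cells, the groups overlapped at 128 and 110.0 CPM with vehicle and 112 and 122 CPM with PM.

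Fkbp5 encodes FKBP51, a co-chaperone that lowers the receptor's affinity for hormone and is itself induced by it, a feedback loop often read as a sign of receptor activity. The order of mean levels (CPM ± SD) was CAR cells (74.8 ± 19.4), HSPC (67.1 ± 4.72), T and NK cells (62.8 ± 7.30), DC (62.2 ± 13.1), megakaryocytes (57.6 ± 29.4), eosinophil/basophil prog (53.4 ± 19.1), mono&prog (47.9 ± 7.86), neutrophils (46.4 ± 3.67), B cells (35.5 ± 8.59), macrophages (34.8 ± 13.5), erythroid&prog (21.8 ± 4.74) and plasma cells (14.4 ± 4.06). Every neighbouring pair in this order overlapped, so the order is not sharp. Fkbp5 had a log2 change above 0 in 10 of 12 types, both PM mice were above both vehicle mice in 5 of them and below in 1 (25.5% and 16.2% of all genes tested), 2 had an unadjusted p under 0.05, both higher (7% of all genes), and none passed the test. In all B cells the values were 36.9 and 23.2 CPM with vehicle and 42.7 and 39.4 CPM with PM (0.61 ± 0.23, adjusted p = 0.135). Among mature B cells they were 26.5 and 13.04 CPM with vehicle and 43.4 and 28.8 CPM with PM, a change of 1.16 ± 0.34 (adjusted p = 0.0813). The lower PM mouse was just above the higher vehicle mouse there. Megakaryocytes had 45.97 and 22.01 CPM with vehicle and 74.9 and 87.5 CPM with PM (1.51 ± 0.49, adjusted p = 0.646). In that type Tsc22d3 had the same order (55.2 and 22.01 against 62.9 and 102 CPM), and neutrophil-list UMIs moved with both, at 19.97 and 3.66 per 1000 in vehicle against 40.1 and 73.8 in PM. The neutrophil granule genes Camp (119.5 and 110.0 against 3247 and 6658 CPM) and Chil3 (27.6 and 28.6 against 593 and 2124 CPM) rose in the same cells, and their part in the Fkbp5 and Tsc22d3 values was not tested. In neutrophils Fkbp5 differed little, at 42.2 and 44.9 CPM with vehicle and 48.2 and 50.5 CPM with PM (0.10 ± 0.10).

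**Figure D1:**
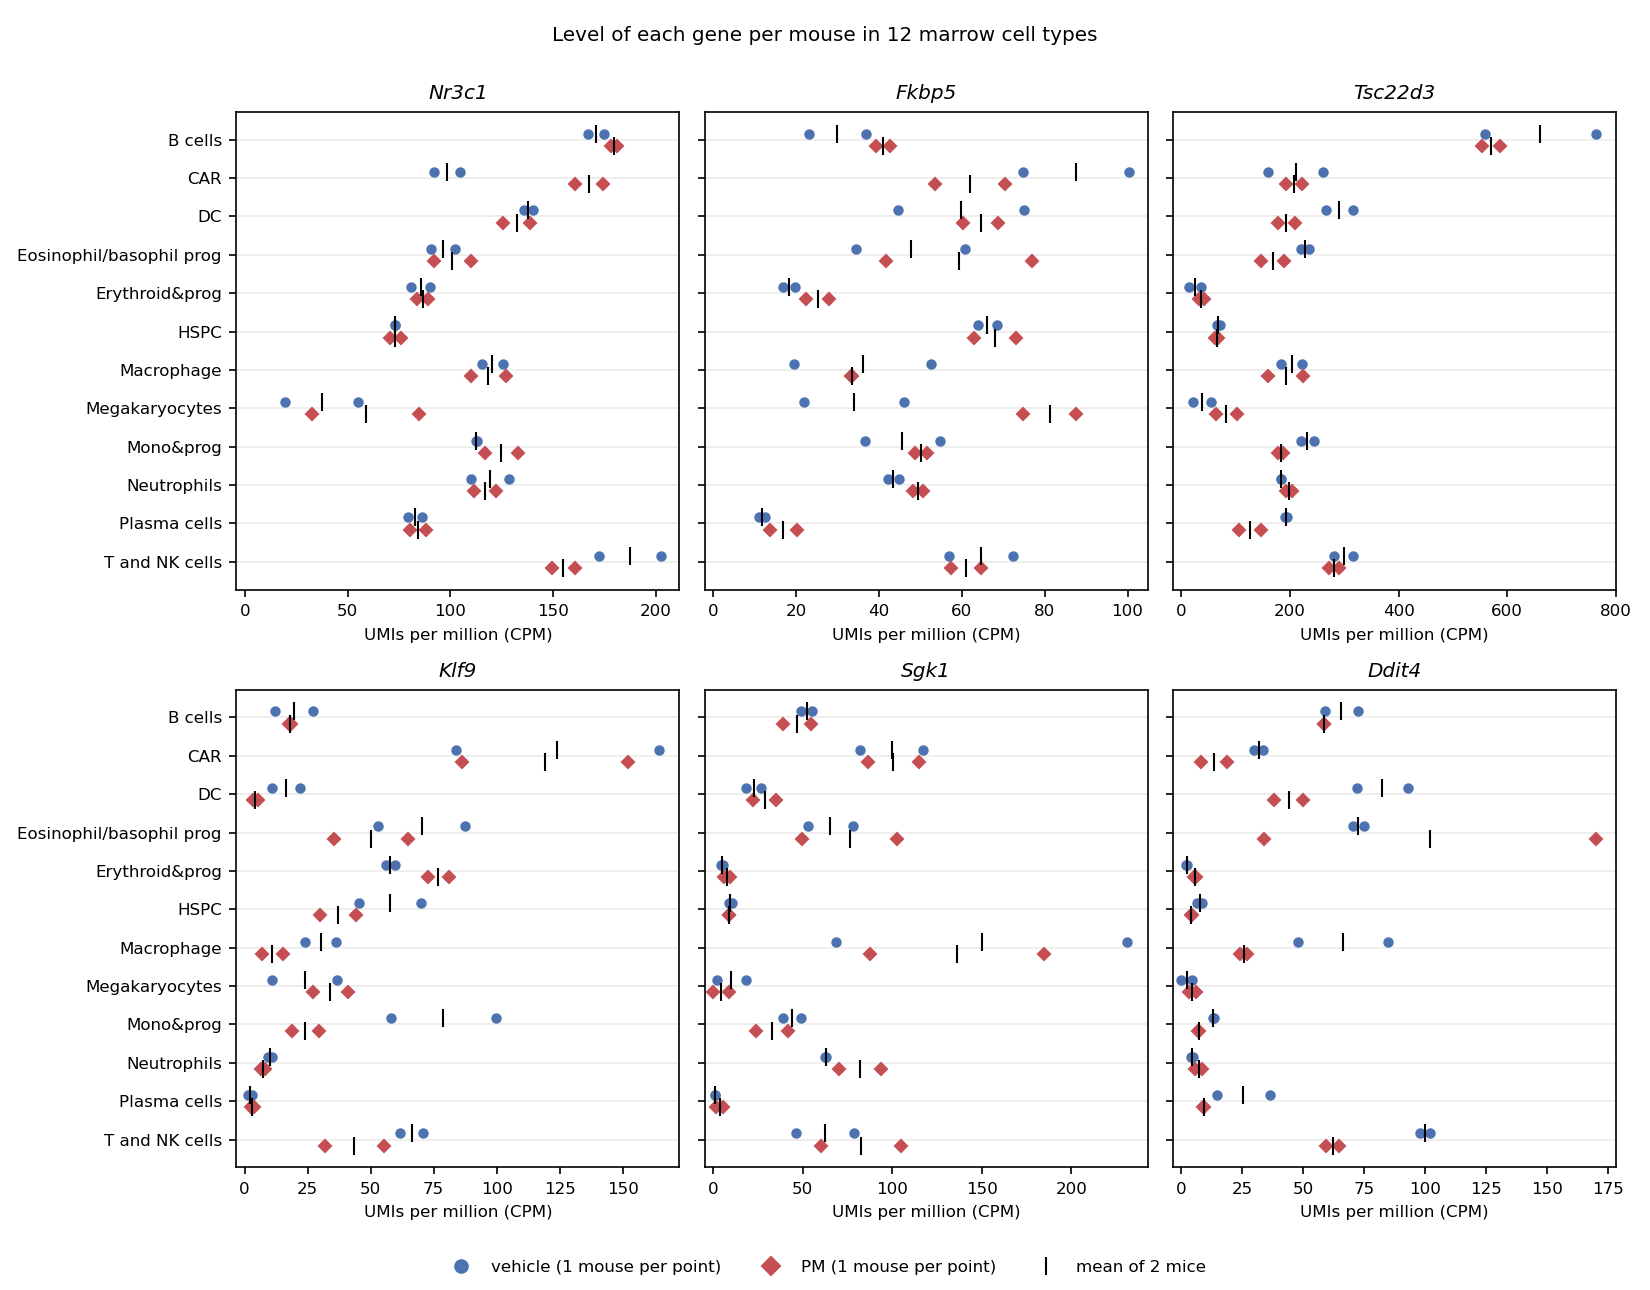
Level of each of the 6 genes per mouse in 12 cell types, in CPM on linear axes that differ between panels, with vehicle mice as circles, PM mice as diamonds and a tick at each group mean. B cells stand apart for Tsc22d3 at 554 to 763 CPM, and the Ddit4 points of the PM mice lie to the left of the vehicle points in 8 of 12 types, CAR cells, which were not tested, among them.

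Tsc22d3 encodes GILZ, a leucine zipper protein that damps NF-kB and AP-1 and carries out much of the anti-inflammatory action of glucocorticoids. By mean level (CPM ± SD), cell types ranked as B cells (616 ± 99.2), T and NK cells (289.6 ± 19.3), DC (242 ± 60.9), CAR cells (209 ± 43.5), mono&prog (207 ± 30.4), eosinophil/basophil prog (198 ± 38.8), macrophages (198 ± 31.2), neutrophils (191 ± 9.16), plasma cells (159 ± 41.6), HSPC (66.5 ± 3.77), megakaryocytes (60.5 ± 32.9) and erythroid&prog (30.8 ± 11.9). B cells did not overlap with the next type, and plasma cells did not overlap with HSPC below them, while the 7 neighbouring pairs in between overlapped. Within the B cells, mature cells had more than the pro- and pre-B cells. In pro- and pre-B cells, which are the progenitors that rearrange their immunoglobulin genes, the values were 374 and 319 CPM with vehicle and 193 and 205 CPM with PM. The PM values lay below both vehicle values, by 1.74-fold, and Tsc22d3 passed the test there (-0.75 ± 0.17, adjusted p = 0.00664). Of all genes tested in these cells, 4.58% were called lower. In mature B cells the values were 1129.6 and 938 CPM with vehicle and 758 and 758 CPM with PM, again without overlap, and did not pass (-0.47 ± 0.16, adjusted p = 0.152). Over all B cells the groups overlapped, at 763 and 559 CPM with vehicle and 587 and 554 CPM with PM. The share of pro- and pre-B cells among B cells was 35.0% and 50.5% in vehicle against 12.3% and 17.2% in PM mice, so the pooled value mixed the stages in other proportions.

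Markers of B cell stage also differed within the pro- and pre-B cells. The summed level of their 10 stage markers was 5854 and 5762 CPM with vehicle and 4891 and 4751 CPM with PM, with 4 lower (Dntt, Rag1, Rag2 and Vpreb3) and 1 higher (Igll1). The 10 mature markers summed to 819 and 816 CPM with vehicle and 1059 and 1041 CPM with PM, with Cd22, H2-Eb1 and Cd74 higher. Rag2, a subunit of the recombinase that cuts immunoglobulin genes, was at 225 and 177 against 68.7 and 60.7 CPM in vehicle and PM mice. The part of these stage genes in the Tsc22d3 change was not tested. Cells of this stage numbered 85 and 497 with vehicle and 177 and 127 with PM. They held 355459 and 2062263 UMIs with vehicle and 1236963 and 972022 with PM, so the cells of both PM mice held more UMIs each. The part of this depth in the Tsc22d3 change was not tested. Neutrophil-list UMIs did not separate the groups (45.5 and 27.6 against 38.9 and 29.0 per 1000). In the 2 mature B clusters, each taken alone, the Tsc22d3 values were 1204 and 1185 against 851 and 925 CPM in cluster 7 and 877 and 617 against 552 and 485 CPM in cluster 18. The first of these had an adjusted p of 0.033 (edgeR) at a log2 change of -0.46, which is under the fold limit.

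Outside the B cells, Tsc22d3 was lower in both PM mice in DC (315 and 267 against 178 and 208 CPM), mono&prog (244 and 220.5 against 178 and 186 CPM), eosinophil/basophil prog (235 and 219.7 against 147 and 188 CPM) and plasma cells (194 and 190.5 against 106 and 147 CPM). None of these passed, the lowest adjusted p being 0.119 in mono&prog (edgeR). Plasma cells, the lineage of the injected myeloma cells, had a change of -0.83 ± 0.22 (adjusted p = 0.396). They comprised cluster 22, led by Igha, Igkc and Jchain, at 269.6 and 363 against 197 and 259 CPM, and cluster 27, led by Mt2, Ighg2b and Igkc, at 79.1 and 38.04 against 68.2 and 47.5 CPM. The log2 changes were -0.66 and 0.09, with overlap in the second. Cluster 27 made up 33.3% and 27.0% of plasma cells in vehicle against 49.2% and 32.6% in PM mice, and immunoglobulin genes took 36.8% and 31.1% against 18.6% and 30.4% of the UMIs of the type. Their part in the Tsc22d3 and Ddit4 values was not tested, and neither was which cluster holds the myeloma cells. In neutrophils the values were 184 and 183 CPM with vehicle and 203 and 192 CPM with PM, with a change of 0.03 ± 0.12.

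Klf9 encodes a Krüppel-like transcription factor that many tissues induce directly through the receptor. From highest to lowest mean level (CPM ± SD), the types were CAR cells (122 ± 42.6), erythroid&prog (67.4 ± 11.5), eosinophil/basophil prog (60.2 ± 21.8), T and NK cells (54.8 ± 16.7), mono&prog (51.4 ± 36.1), HSPC (47.3 ± 16.8), megakaryocytes (28.9 ± 13.3), macrophages (20.6 ± 12.7), B cells (18.9 ± 6.26), DC (10.3 ± 8.37), neutrophils (8.69 ± 1.83) and plasma cells (2.63 ± 0.969). CAR cells did not overlap with erythroid&prog, the next type, and neutrophils did not overlap with plasma cells, the lowest. Klf9 had a log2 change below 0 in 7 of 10 tested types, was lower in both PM mice in 5 of them (16.2% of all genes tested), and passed the edgeR test in none. In mono&prog the values were 99.6 and 57.99 CPM with vehicle and 18.7 and 29.4 CPM with PM. Both PM mice were well below both vehicle mice, but the vehicle mice also differed from each other (-1.78 ± 0.39, adjusted p = 0.195), and DESeq2 called the change (adjusted p = 3.65e-08). All 3 mono&prog clusters had lower Klf9 in both PM mice, with log2 changes of -1.92, -1.56 and -1.29. DC showed 21.9 and 10.8 CPM with vehicle and 3.15 and 5.34 CPM with PM (-1.98 ± 0.47, adjusted p = 0.149). In macrophages, where the gene was not tested, the values were 36.4 and 23.99 CPM with vehicle and 6.72 and 15.1 CPM with PM. The PM values were thus lower in mono&prog, macrophages and the DC cluster, which carries plasmacytoid markers.

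In neutrophils Klf9 was at 10.9 and 9.29 CPM with vehicle and 6.64 and 7.94 CPM with PM (-0.56 ± 0.15, adjusted p = 0.0636). Mature neutrophils had 15.98 and 13.3 CPM with vehicle and 5.97 and 8.47 CPM with PM (-0.99 ± 0.26, adjusted p = 0.0662). Neither passed the threshold, and both PM mice were lower in each. HSPC (70.2 and 45.2 against 29.8 and 44.1 CPM) and T and NK cells (70.6 and 61.8 against 31.7 and 55.2 CPM) had the same order. Erythroid&prog ran the other way, at 59.5 and 56.2 CPM with vehicle and 72.9 and 80.9 CPM with PM (0.34 ± 0.16, adjusted p = 0.395).

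Sgk1 encodes serum- and glucocorticoid-regulated kinase 1, which acts in parallel with AKT and phosphorylates FoxO factors and the ubiquitin ligase NEDD4L. Mean levels (CPM ± SD) fell in the order macrophages (143 ± 77.7), CAR cells (100.2 ± 18.4), T and NK cells (72.7 ± 25.3), neutrophils (72.5 ± 14.7), eosinophil/basophil prog (70.9 ± 24.8), B cells (49.6 ± 7.37), mono&prog (38.4 ± 10.5), DC (25.8 ± 7.23), HSPC (9.21 ± 0.740), megakaryocytes (7.33 ± 8.25), erythroid&prog (6.42 ± 2.09) and plasma cells (2.32 ± 2.11). DC and HSPC were the only neighbours in this order whose values did not overlap. In mature neutrophils Sgk1 was at 91.4 and 117 CPM with vehicle and 149.8 and 172 CPM with PM. Neither PM mouse overlapped with vehicle, the means differing by 1.54-fold, and Sgk1 passed the test (0.69 ± 0.15, adjusted p = 0.0401), where 3.51% of all genes were called higher. The call was lost in a fit that pairs mice by their number (a replicate block, adjusted p = 0.102) and without vehicle mouse 1 (0.111), PM mouse 1 (0.209) or PM mouse 2 (0.250). The rise was called in 2 of the 4 mature clusters, at 80.5 and 119 against 159 and 168 CPM in cluster 1 (3.72% of genes called higher) and 92.4 and 105 against 147 and 179 CPM in cluster 3 (2.45%). In clusters 11 and 13 the values were 133 and 152 against 174 and 139 CPM and 118 and 81.7 against 133 and 179 CPM, and the first of these overlapped.

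In the summed mature neutrophils, markers of earlier stages had a higher total in the PM mice. Of these, 2 of 9 immature and 2 of 10 precursor markers were called higher. Whether this mRNA belonged to these cells or was free RNA was not tested. The summed level of 9 markers of immature neutrophils was 21280.1 and 15887 CPM with vehicle and 26233 and 25677 CPM with PM, of which Cebpe, a factor of granule maturation, and Lyz2, lysozyme, rose. The 10 precursor markers summed to 139 and 140.3 CPM with vehicle and 349.5 and 226 CPM with PM, with the granule proteins Elane and Mpo higher, while the 11 mature markers summed to 15428 and 18491 CPM with vehicle and 16075 and 18126 CPM with PM. Sgk1 itself was at 75.4 and 68.7 against 77.9 and 101 CPM in immature neutrophils and 23.3 and 18.8 against 17.7 and 22.05 CPM in proliferating precursors. Those levels are below the mature level in the same mice, and the part of stage in the Sgk1 rise was not tested. Over all neutrophils Sgk1 was 62.7 and 63.3 CPM with vehicle and 70.3 and 93.9 CPM with PM (0.30 ± 0.12, adjusted p = 0.186).

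In mature B cells Sgk1 was 7.96 and 20.7 CPM with vehicle and 31.5 and 38.4 CPM with PM (0.96 ± 0.32, adjusted p = 0.139). Both PM mice were higher, but the vehicle mice differed by more than 2-fold. In mono&prog the groups overlapped, at 48.97 and 38.9 CPM with vehicle and 23.9 and 41.8 CPM with PM, and macrophages spread widely within each group, at 68.7 and 231 CPM with vehicle and 87.4 and 185 CPM with PM.

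Ddit4 encodes REDD1, an inhibitor of mTORC1 that glucocorticoids, hypoxia and energy stress each induce. Types ordered by mean level (CPM ± SD) were eosinophil/basophil prog (87.2 ± 58.1), T and NK cells (80.97 ± 21.95), DC (63.3 ± 24.2), B cells (62.04 ± 6.88), macrophages (46.00 ± 28.04), CAR cells (22.5 ± 11.5), plasma cells (17.3 ± 12.9), mono&prog (10.1 ± 3.51), HSPC (5.81 ± 2.17), neutrophils (5.66 ± 2.02), erythroid&prog (3.83 ± 1.999) and megakaryocytes (3.31 ± 2.49). Every neighbouring pair in this order overlapped. Over the 12 types, Ddit4 separated the groups more often than the other 5 genes did. Both PM mice were below both vehicle mice in 7 of 10 tested types and above in 2 (16.2% and 25.5% of all genes tested), and 8 had an unadjusted p under 0.05, 6 lower and 2 higher (5.17% and 7%). In the 5 stages the groups were apart in 3 for Ddit4 (2 with PM higher, 1 lower) and in 4 for Tsc22d3 (2 and 2). Of all genes tested in the stages, 28.4% were apart with PM higher and 20.1% with PM lower. The stage counts are not read as a result about either gene. In mono&prog the values were 13.4 and 12.8 CPM with vehicle and 6.999 and 7.08 CPM with PM. The mice of each group were close to each other and the fall passed the test, by 1.86-fold (-0.92 ± 0.18, adjusted p = 0.0361), where 0.517% of all genes were called lower. DESeq2 did not call it (adjusted p = 0.0565), nor did edgeR without vehicle mouse 1 (0.0641), PM mouse 1 (0.241) or PM mouse 2 (0.137).

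This call was lost when 1 small cluster was left out. Cluster 26, led by MHC class II genes, Cx3cr1 and Adgre4, had 206 and 171 CPM with vehicle and 69.7 and 138 CPM with PM. This is far above clusters 6 (13.1 and 15.9 against 10.4 and 7.21 CPM) and 10 (5.29 and 3.998 against 4.19 and 3.01 CPM). Cluster 26 made up 7.27% and 7.80% of mono&prog with vehicle and 3.19% and 7.17% with PM. Without it, in a fit chosen after seeing the data, the values were 8.68 and 8.49 CPM with vehicle and 6.39 and 4.41 CPM with PM, and Ddit4 no longer passed (-0.65 ± 0.25, adjusted p = 0.249). Klf9 without cluster 26 was at -1.79 ± 0.38. The 10 mono&prog markers summed to 10279 and 10052 CPM with vehicle and 11243 and 12399 CPM with PM in the whole type, with 1 lower, Treml4, a marker of the non-classical monocytes that also express Cx3cr1.

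Ddit4 was also lower in both PM mice, without passing, in T and NK cells, DC, HSPC, macrophages and plasma cells. T and NK cells were at 102 and 97.8 CPM with vehicle and 59.4 and 64.9 CPM with PM (-0.67 ± 0.15, adjusted p = 0.0724). DC were at 92.9 and 71.96 CPM with vehicle and 38.2 and 50.1 CPM with PM (-0.93 ± 0.19, adjusted p = 0.0828). The groups were clearly apart in both. HSPC had 6.43 and 8.61 against 4.17 and 4.02 CPM, macrophages 84.9 and 47.98 against 26.9 and 24.2 CPM and CAR cells, not tested, 33.5 and 29.9 against 8.23 and 18.5 CPM. Plasma cells were at 36.2 and 14.6 CPM with vehicle and 8.92 and 9.29 CPM with PM. The vehicle mice differed by more than 2-fold there, and the change of -1.69 ± 0.45 did not pass (adjusted p = 0.515). It was -0.89 without vehicle mouse 1 and -2.27 without vehicle mouse 2. Within the 2 plasma cell clusters the values were 47.8 and 19.3 against 14.8 and 16.9 CPM in cluster 22 and 18.6 and 10.5 against 6.48 and 2.50 CPM in cluster 27, lower in both PM mice in each.

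Neutrophils ran the other way. Immature neutrophils had 3.33 and 4.13 CPM with vehicle and 6.04 and 8.32 CPM with PM. The groups were apart, PM being higher by 1.92-fold, and the rise passed the test (0.82 ± 0.23, adjusted p = 0.0462), in a stage where 5.93% of all genes were called higher. The call was lost with DESeq2 (adjusted p = 0.142), with doublets removed (0.0564), at another clustering resolution (0.0503), and without vehicle mouse 1 (0.281) or PM mouse 2 (0.175). Genes that respond to the handling of cells rose in the same stage, 6 of the 14 tested (Btg2, Egr1, Fos, Fosb, Hspa1b and Jun), with Fosb at 3.47 and 5.49 against 15.3 and 12.9 CPM, and edgeR called 0 lower. Their part in the Ddit4 rise was not tested. The 3 clusters of this stage had 1.88 and 5.02 against 6.80 and 8.40 CPM (cluster 0), 6.40 and 5.12 against 6.02 and 9.96 CPM (cluster 2) and 1.69 and 2.56 against 4.74 and 5.90 CPM (cluster 4), the second of them with overlap. These are low levels in 14759924 to 20741313 UMIs per mouse. The 9 immature markers summed to 116310.0 and 117876 CPM with vehicle and 110608 and 117032 CPM with PM. The 10 precursor markers summed to 237 and 254 CPM with vehicle and 325 and 244 CPM with PM, with overlap. Of these only Fcnb was called, lower. Mki67 was lower in both PM mice and Elane, Mpo, Ctsg and Prtn3 were higher, none of them called. Il1b of the mature list was called higher. Ddit4 in proliferating precursors was at 0.562 and 0.339 CPM with vehicle and 1.92 and 1.94 CPM with PM (1.95 ± 0.48, adjusted p = 0.0632). Erythroid&prog were at 2.07 and 2.17 CPM with vehicle and 5.13 and 5.94 CPM with PM (1.29 ± 0.45, adjusted p = 0.285). In eosinophil/basophil prog the PM mice lay on either side of the vehicle mice, at 70.3 and 74.8 CPM with vehicle and 33.7 and 169.9 CPM with PM.

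**Figure D2:**
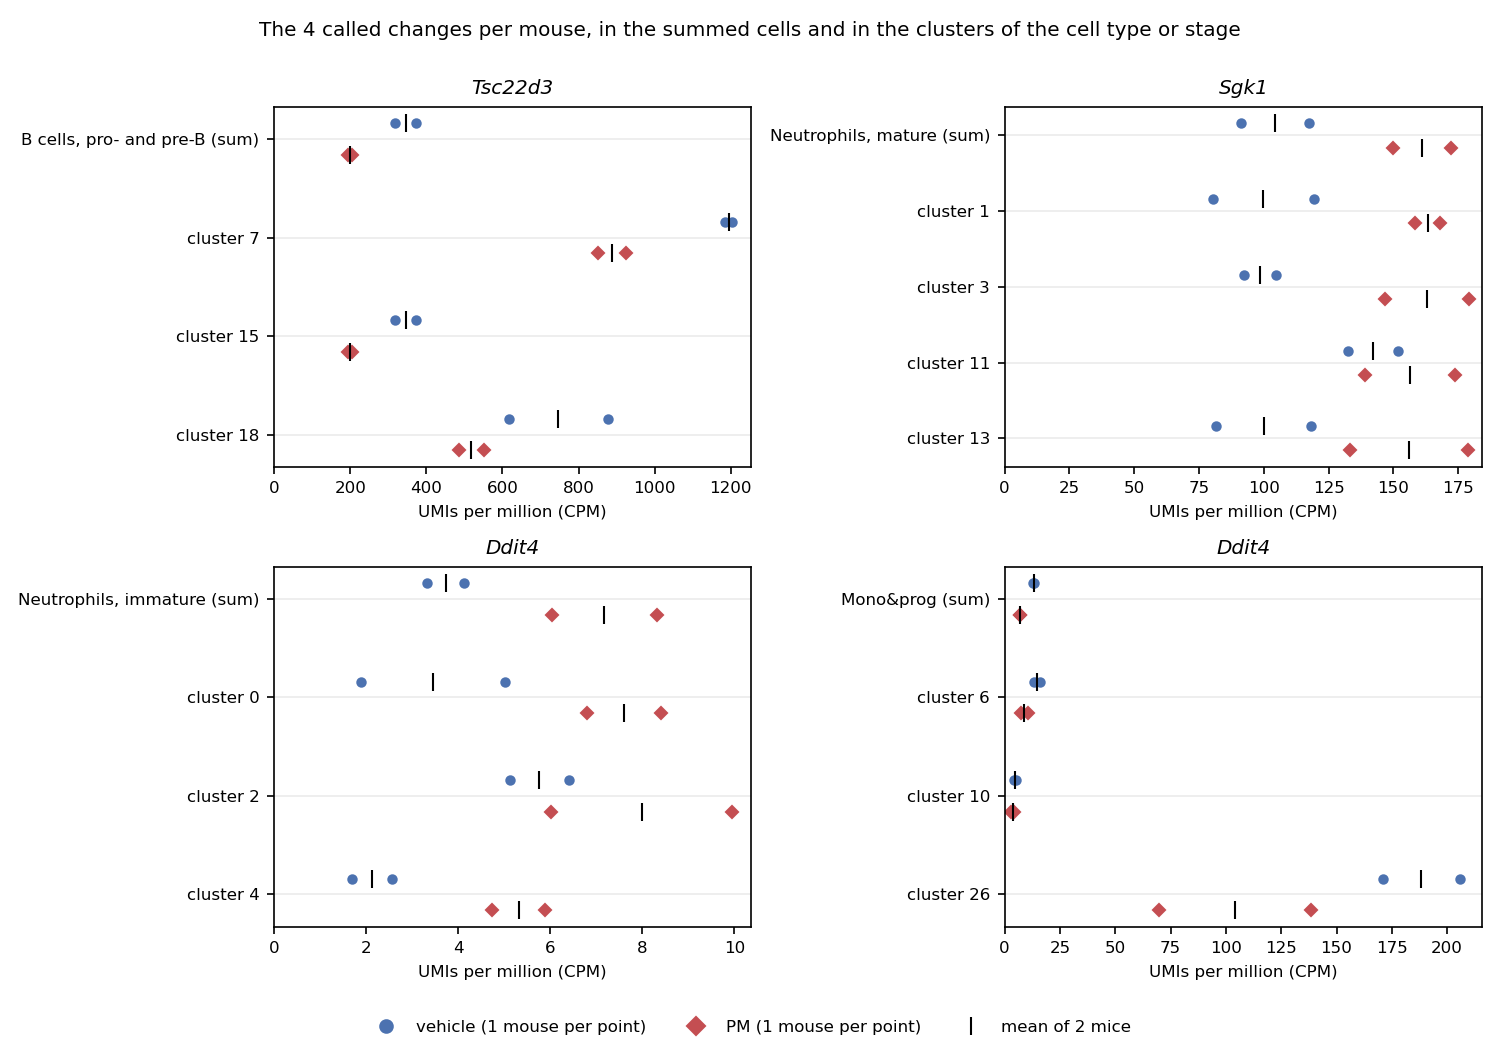
Level per mouse, in CPM, of the 4 changes that passed the test, in the summed cells and in each cluster of the cell type or stage (for Tsc22d3, all 3 B cell clusters). Vehicle mice are circles, PM mice diamonds and ticks group means, and cluster 26 of mono&prog stands far to the right for Ddit4 at 69.7 to 206 CPM.

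An effect past the test in 1 type and not in another does not show that the types differ, so the difference of each effect from that in neutrophils was tested in 1 fit over all types. Of 66 such differences 4 passed, against 1.27% over all genes and types (edgeR quasi-likelihood test). The neutrophil sums are part of every one of these differences. This fit counts each sum of a type and mouse as its own observation and pools the spread over types. All sums come from the same 4 mice, so its p-values still rest on 2 mice per group. For Klf9 in mono&prog alone the SE was 0.39, and the change did not pass (adjusted p = 0.195, edgeR). For Klf9 the effect in mono&prog was 1.24 log2 units below that in neutrophils (difference -1.24 ± 0.21, adjusted p = 0.000101), and in erythroid&prog it was 0.88 ± 0.21 above (adjusted p = 0.0147). For Ddit4 the effect was below that in neutrophils in mono&prog (-1.50 ± 0.40, adjusted p = 0.0452) and in plasma cells (-2.16 ± 0.54, adjusted p = 0.0423). Without cluster 26 the 2 Ddit4 differences were -1.18 (adjusted p = 0.273) and -2.17 (adjusted p = 0.0600) and no longer passed, and the 2 Klf9 differences did. With mono&prog as the reference type 7 of 66 differences passed. The share of all genes that passed in that fit ran from 0.0145% in CAR cells and macrophages to 2.33% in neutrophils. Klf9 in mono&prog then stood below B cells, erythroid&prog, HSPC, neutrophils and T and NK cells, by 1.06 to 2.12 log2 units.

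**Figure D3:**
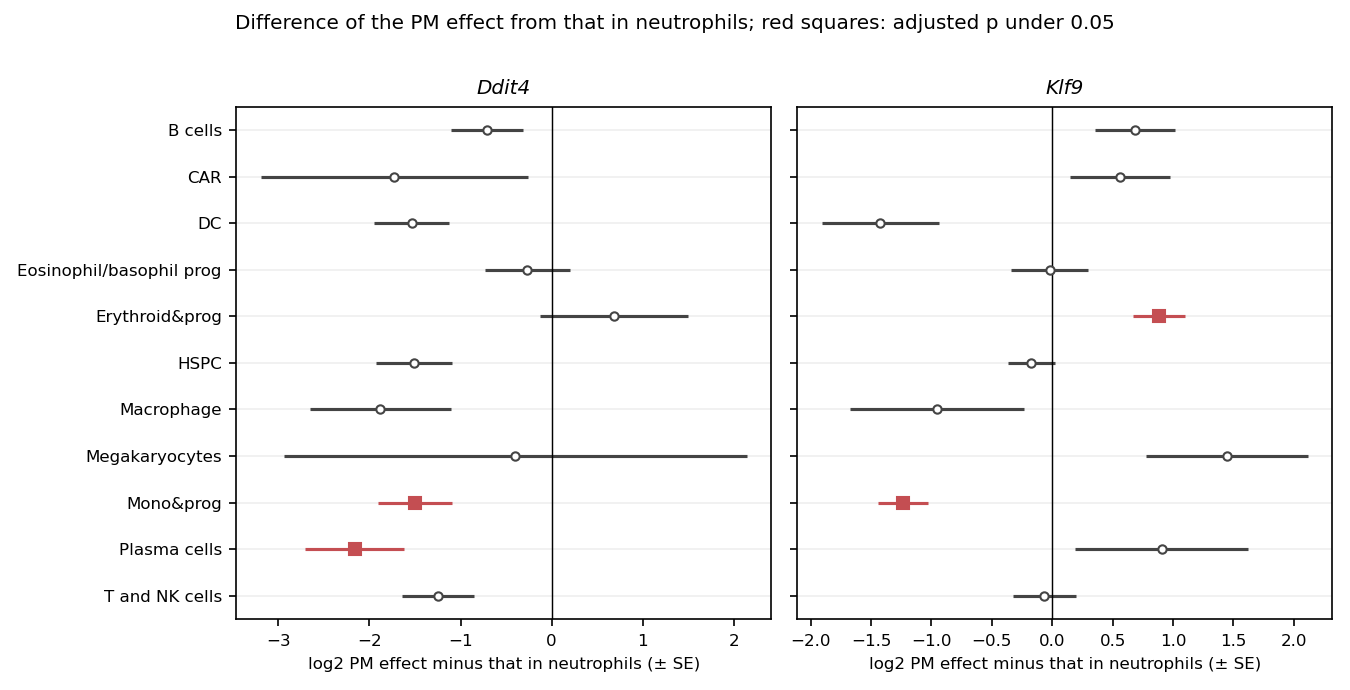
Difference of the PM effect in each cell type from the PM effect in neutrophils, in log2 units with the SE as a bar, for Ddit4 and Klf9. Red squares passed the test, mono&prog and plasma cells for Ddit4 (both to the left of 0) and mono&prog and erythroid&prog for Klf9 (on opposite sides of 0).

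The wider pathway was described from lists of genes. The lists share genes, so the same call can count in several of them. Of the induced list, Btg2, Zfp36 and Dusp1 are also in the list of genes that respond to handling. Il7r, Bcl2l11, Txnip, Pik3ip1, Irs2 and Sesn1 are also in the FoxO list, and Lcn2 is also in the neutrophil list. The 38 other genes known to be induced by glucocorticoids gave 335 tested pairs in the types, of which 5 were higher (1.49%) and 10 lower (2.99%), and 137 in the stages, of which 6 were higher (4.38%) and 11 lower (8.03%). Over all genes the shares were 0.953% and 0.458% in the types and 3.62% and 1.62% in the stages. At an unadjusted p under 0.05, 46 pairs of this list were higher and 31 lower in the types (7% and 5.17% of all genes tested). In the stages 21 were higher and 25 lower (11.8% and 8.91% of all genes). Per1, a clock gene with a well known response element, fell in 5 of the types and stages. In mature neutrophils it was at 42.9 and 58.7 CPM with vehicle and 13.9 and 19.5 CPM with PM (-1.54 ± 0.20, adjusted p = 0.00958). In mono&prog it was at 60.96 and 45.2 CPM with vehicle and 22.1 and 27.5 CPM with PM (-1.15 ± 0.16, adjusted p = 0.0126). It also fell in HSPC, all neutrophils and immature neutrophils, and the groups did not overlap in any of the 5. Dusp1, a phosphatase that switches off MAP kinases, passed in none. In mono&prog its values were 966 and 665 CPM with vehicle and 143 and 509 CPM with PM, and PM mouse 1 was the lowest of the 4 mice in each type and stage except megakaryocytes. Zbtb16, a zinc finger gene strongly induced by glucocorticoids in many cells, rose in mature neutrophils (2.02 and 5.18 against 14.5 and 9.38 CPM) and in all neutrophils (0.727 and 1.29 against 3.08 and 2.57 CPM). In T and NK cells it was at 16.1 and 10.03 against 3.78 and 3.51 CPM and did not pass (-1.78, adjusted p = 0.106, edgeR).

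**Figure D4:**
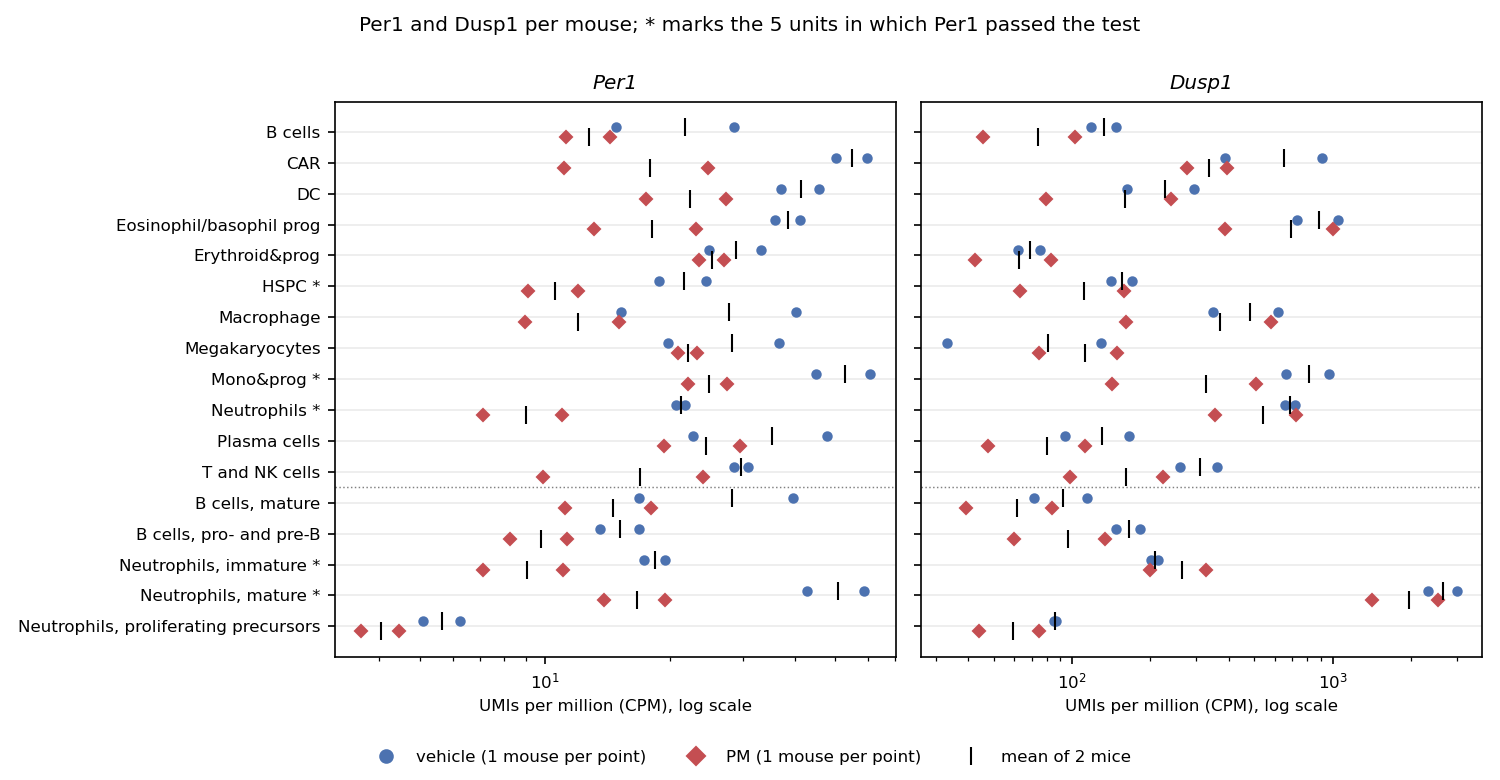
Level of Per1 and Dusp1 per mouse in 12 cell types and, under the dotted line, 5 stages, in CPM on log axes. Asterisks mark the 5 units in which Per1 passed the test, and the vehicle circles lie to the right of both PM diamonds there, while for Dusp1 the lower PM diamond lies left of both vehicle circles in each unit except megakaryocytes and the other diamond often lies among them.

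Other genes of the induced list moved in B cells and DC. Il7r, the IL-7 receptor that early B cells depend on, fell in B cells (288 and 333 against 131 and 146 CPM). In pro- and pre-B cells, which it marks, it was at 594 and 537 against 403 and 384 CPM and did not pass (-0.48, adjusted p = 0.0632, edgeR). Pro- and pre-B cells were 35.0% and 50.5% of B cells in vehicle and 12.3% and 17.2% in PM mice. Pooled B cell values here and below mixed the stages in those proportions. Ly6c2, a surface antigen of monocytes, rose in B cells (120.1 and 72.5 against 289 and 225 CPM) and DC (1281 and 1093 against 2319 and 2332 CPM). Thbs1, the matrix protein thrombospondin 1, rose in HSPC (0.655 and 1.26 against 5.03 and 9.03 CPM) and in proliferating neutrophil precursors (0.843 and 1.36 against 11.6 and 15.9 CPM). Mt1, a metal-binding metallothionein, rose in pro- and pre-B cells (0 and 11.6 against 30.7 and 22.6 CPM), and its partner Mt2 passed in none. In pro- and pre-B cells, where Tsc22d3 was lower, 7 of the 25 tested genes of this list were lower, against 4.58% of all genes. They were Btg1, Btg2, Cxcr4, Nfkbia, Rgs2, Tnfaip3 and Zfp36. Mt1 was the 1 called higher there, against 5.5% of all genes, and the median log2 change of the list was -0.48. The part of these genes in the Tsc22d3 change was not tested. Over all types and stages the list had calls in both directions.

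Genes that handle the hormone did not pass the test in any type or stage. In this list of 7 genes, which holds the mineralocorticoid receptor Nr3c2 and the enzyme Hsd11b1 that regenerates active hormone, 39 pairs in the types and 16 in the stages were tested by edgeR and 0 passed, as with DESeq2. At an unadjusted p under 0.05, 4 pairs in the types were higher and 3 lower (7% and 5.17% of all genes). In the stages 2 were higher and 3 lower (11.8% and 8.91% of all genes). Among 18 receptor chaperones and cofactors, 1 of 206 pairs in the types was higher (0.485%, against 0.953% of all genes). In the stages 5 of 90 were (5.56%, against 3.62%). All 5 were in pro- and pre-B cells, namely Fkbp4, Hsp90aa1, Hsp90ab1, Hspa8 and Ptges3. These were 5 of the 18 tested there, where 5.5% of all genes were called higher. Their part in the Tsc22d3 change of the same cells was not tested. The 1 pair in the types was Hspa8, the constitutive HSP70, in B cells (846 and 858 CPM with vehicle and 1204 and 1229 CPM with PM). In pro- and pre-B cells Hspa8 was at 1007 and 914 against 1849 and 1726 CPM. Of the 20 inflammatory genes that glucocorticoids repress, 2 of 106 pairs in the types rose (1.89%) and 8 of 43 in the stages (18.6%), against 0.953% and 3.62% of all genes, and 0 fell. At an unadjusted p under 0.05, 11 pairs of this list in the types were higher and 8 lower (7% and 5.17% of all genes). In the stages 12 were higher and 1 lower (11.8% and 8.91% of all genes). DESeq2 called 4 higher and 2 lower in the types and 7 higher and 1 lower in the stages. Vcam1, an adhesion molecule, was the gene of both types, in HSPC (75.2 and 98.1 against 155 and 186 CPM) and neutrophils (13.03 and 17.2 against 34.5 and 33.8 CPM).

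Genes of other inputs to the same 6 genes were counted in the same way. In the types, 2 of 126 integrated stress response pairs (1.59%) and 2 of 123 hypoxia pairs (1.63%) were higher. So was 1 of 143 FoxO pairs (0.699%), against 0.953% of all genes. Lower were 0, 1 (0.813%) and 3 pairs (2.1%) in turn, against 0.458% of all genes. In the stages, 5 of 59 integrated stress response pairs (8.47%) and 4 of 60 hypoxia pairs (6.67%) were higher. So were 2 of 67 FoxO pairs (2.99%), against 3.62% of all genes. Lower were 2 (3.39%), 4 (6.67%) and 3 pairs (4.48%) in turn, against 1.62% of all genes. In pro- and pre-B cells, where Tsc22d3 was lower, 4 of 10 integrated stress response genes (Asns, Phgdh, Slc7a11 and Slc7a5) were higher. So were 3 of 11 hypoxia genes (Ldha, Pgk1 and Vegfa), against 5.5% of all genes in these cells. Lower were 3 of 15 FoxO genes (Ccng2, Foxo1 and Klf2), against 4.58%. The part of these genes in the Tsc22d3 change was not tested. Slc7a11, the cystine transporter, rose in eosinophil/basophil prog (5.31 and 10.9 against 38.4 and 58.95 CPM) and the pseudokinase Trib3 in neutrophils (1.37 and 0.851 against 2.75 and 2.92 CPM). Among hypoxia genes, Ldha, lactate dehydrogenase, rose in B cells (117 and 146 against 189 and 218 CPM) and pro- and pre-B cells (127 and 165 against 411 and 373 CPM), Ankrd37 rose in B cells (6.83 and 13.96 against 31.98 and 24.3 CPM), and the demethylase Kdm3a fell in neutrophils (17.4 and 18.7 against 12.98 and 13.9 CPM). Among FoxO targets, S1pr1, which guides lymphocyte exit, rose in neutrophils (0.815 and 1.60 against 5.53 and 4.37 CPM). Ccng2, a cyclin of arrested cells, fell in B cells (120.1 and 148 against 73.98 and 65.2 CPM), and Bcl2l11, which encodes the death protein BIM, fell in mono&prog (68.5 and 58.4 against 34.8 and 41.3 CPM).

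Genes that respond to the handling of cells changed in both directions. In the types 2 of 163 pairs were higher (1.23%, against 0.953% of all genes) and 5 lower (3.07%, against 0.458%). In the stages 10 of 70 were higher (14.3%, against 3.62% of all genes) and 6 lower (8.57%, against 1.62%). Jun fell in B cells (213 and 268 against 107 and 171 CPM) and rose in neutrophils (113 and 113 against 161 and 236 CPM). Btg2 (791 and 799 against 218 and 249 CPM) and Jund (1072 and 1043 against 292 and 537 CPM) fell in pro- and pre-B cells, and Fosb fell in B cells (30.03 and 29.7 against 14.4 and 18.2 CPM). Hspa1b, an inducible HSP70, rose in mature neutrophils (1.44 and 1.55 against 7.01 and 6.66 CPM). In pro- and pre-B cells, beside Tsc22d3, 6 of the 14 tested genes of this list were lower (Btg2, Fos, Jun, Junb, Jund and Zfp36). Btg2 and Zfp36 are the same calls that were counted in the induced list. The share of all genes was 4.58%. Higher was 1, Hspa1b, against 5.5% of all genes. In mature neutrophils, beside Sgk1, Jun (144 and 214 against 333 and 402 CPM) and Hspa1b were higher of 15 tested and 0 lower by edgeR. Of all genes tested there, 3.51% were called higher. The part of these genes of the list in the Tsc22d3 and Sgk1 changes was not tested. Of the 10 neutrophil genes that mark free RNA, 3 of 120 pairs in the types were higher (2.5%, against 0.953% of all genes). Lower were 2 (1.67%, against 0.458%). Among them were Retnlg in DC (609 and 476 against 1473 and 1149.5 CPM) and, lower, Lcn2 (928 and 645 against 519 and 412 CPM) and Ngp (2008 and 1949 against 1402 and 1301 CPM) in B cells.

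Over the 12 types, the genes with the most similar pattern of mean log2 level were described for each of the 6, out of 6969 genes searched. Tsc22d3 was closest to Birc3 (r = 0.96), an inhibitor of cell death downstream of NF-kB, then Plekha2 and Psme2b. Fkbp5 was closest to Wls (0.89), Smad1 and Rbpms, Klf9 to the thyroid hormone receptor Thra (0.87), Actn4 and Etfdh, and Sgk1 to Maml1 (0.97), AB124611 and Tk2. Ddit4 was closest to Pink1 (0.91), Etv3 and Tecpr1, and Nr3c1 to Gpr107 (0.96), the NF-kB subunit Rela, and Itch. These are correlations across 12 types taken from the same 4 libraries, picked as the highest of many, and carry no test.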

How the data were processed

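Droplet single-cell RNA-seq was run on marrow of 4 mice, 2 per group, after lysis of red cells. The authors deposited filtered matrices of UMI counts per gene and cell, made with Cell Ranger 6.0.1 per the file headers. STAR is named without a version in the submitters' processing notes, and the sources differ on the genome build (GRCm38 or GRCm39), so no coordinate was taken from the matrices. Barcodes with under 300 genes or over 20% mitochondrial UMIs were removed, and the rest were clustered (scanpy 1.11.5, leidenalg 0.10.2, 2500 variable genes, 30 principal components, 15 neighbours, resolution 1) and named from marker lists. Doublets were scored with Scrublet. Its automatic threshold marked 0.0432% to 5.73% of cells, so the top 0.8% per 1000 cells were called doublets instead (6.26% to 10.7% of cells), and they stayed in the main sums. Counts were summed per mouse and type (each mouse had to have 10 or more of the cells) and tested with edgeR 4.0.16 in R 4.3.3 (quasi-likelihood test, TMM, filterByExpr, Benjamini-Hochberg over all genes tested in the type or stage), with condition as the term. The difference between types was tested as an interaction with the library as a block. DESeq2 1.42.0, RLE normalization, no filter, a stricter cell filter, doublets removed, another clustering resolution, a replicate block and leaving out each mouse were alternatives. On simulated counts for the type sums, the test recovered 40.2% to 96.9% of 4-fold changes and 0.909% to 79.0% of 2-fold ones, lowest in megakaryocytes and CAR cells. Beside the 200 changed genes per type, it called 0 (CAR cells) to 31 (mono&prog) unchanged genes. With no change set at all it still called 14 genes in HSPC and 13 each in plasma cells and in T and NK cells. It called 12 in mono&prog, 10 in neutrophils and 8 in megakaryocytes. In the data 28 genes were called higher and 3 lower in HSPC, and 4 and 2 in plasma cells. The counts were 14 and 23 in T and NK cells and 3 and 0 in megakaryocytes. Replicate numbers do not come from the same animal. The difference of mouse 1 from mouse 2 in vehicle was correlated over genes with the same difference in PM. That correlation was -0.124 to 0.21 over the 12 types, so same-numbered mice were not paired. The genes, lists and named genes were chosen with earlier results of these data known. Named genes were the 6 in every type, at most 5 genes per list called in the most types, Per1, Zbtb16, Dusp1, Mt1, Mt2, Nr3c2 and Hsd11b1 always, and the 3 genes most alike each of the 6. Promoter windows are RefSeq's (GRCm38.p6).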

Additional observations from a re-analysis of the deposited data

Results flagged for a closer look

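For 2 of the genes, differences in the PM effect between cell types passed the test in 1 edgeR fit with the mouse as a block. That fit counts each sum of a type and mouse as its own observation and pools the spread over types. All sums come from the same mice, 2 per group, so its p-values still rest on those mice. In mono&prog alone the Klf9 change had an SE of 0.39 and did not pass (adjusted p = 0.195, edgeR). For Klf9, the effect in mono&prog was -1.24 log2 units from that in neutrophils, both PM mice being lower in each type, and in erythroid&prog it was 0.88 log2 units from it, PM mice being higher in erythroid&prog and lower in neutrophils. For Ddit4, the effect in mono&prog was -1.50 and in plasma cells -2.16 log2 units from that in neutrophils, where both PM mice were higher. Without cluster 26 both Ddit4 differences lost the call, at an adjusted p of 0.273 in mono&prog and 0.0600 in plasma cells, and the Ddit4 change in plasma cells itself ran from -2.27 without vehicle mouse 2 to -0.89 without vehicle mouse 1. These differences share the neutrophil sums, and their cause was not tested.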

How the results depend on the processing

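Tsc22d3 in pro- and pre-B cells stayed called in each alternative, at -0.86 to -0.65 when 1 mouse was left out (adjusted p = 0.00579 to 0.0485). A group left with 1 mouse has no spread of its own, so these fits assume that it varies like the other group. The other 3 calls did not stay. Ddit4 in mono&prog was -0.93 with DESeq2 (adjusted p = 0.0565), -0.65 without cluster 26 (0.249) and -0.96 to -0.89 with 1 mouse left out (0.00189 to 0.241), losing its call without vehicle mouse 1, PM mouse 1 or PM mouse 2. Ddit4 in immature neutrophils was 0.82 with DESeq2 (adjusted p = 0.142), 0.79 with doublets removed (0.0564), 0.81 at the other resolution (0.0503) and 0.65 to 0.99 with 1 mouse left out, losing its call without vehicle mouse 1 or PM mouse 2. Sgk1 in mature neutrophils was 0.58 to 0.78 with 1 mouse left out, losing its call without vehicle mouse 1 or either PM mouse.

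With a replicate block it was 0.69 (adjusted p = 0.102). The block pairs mice by number only, called 374 genes in mono&prog and 141 in mature neutrophils, against 181 and 465 without it, and called Ddit4 in proliferating precursors (adjusted p = 0.0384) in place of Sgk1 in mature neutrophils, while the other 3 calls were made with it too.

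Without the filter on low counts, 1 pair in the types was higher and 11 lower, and 4 and 2 in the stages. The 11 were Ddit4 in DC, HSPC, mono&prog, plasma cells and T and NK cells, Klf9 in DC, HSPC, mono&prog and neutrophils, and Tsc22d3 in DC and plasma cells. Genes called rose to 732 in mono&prog, 1222 in immature and 1465 in mature neutrophils. No share of all genes called without the filter is given for DC, HSPC, plasma cells or T and NK cells. The pairs called without the filter are therefore not read as a result about the genes of the set. With DESeq2, 1 stage pair was higher, 523 genes were called in immature neutrophils and 300 in pro- and pre-B cells, against 812 and 906 with edgeR. At the other resolution 1 stage pair was higher. Leaving out 1 mouse gave 0 to 4 higher and 0 to 7 lower pairs in the types and 0 to 2 and 1 to 2 in the stages. It gave 7 to 1038 genes called in mono&prog (7 without PM mouse 1), 204 to 1099 in immature neutrophils (204 without vehicle mouse 1), 2 to 804 in mature neutrophils (2 without either PM mouse) and 540 to 836 in pro- and pre-B cells. Ddit4 in eosinophil/basophil prog ranged from -1.08 (without PM mouse 2) to 1.18, and Tsc22d3 in erythroid&prog from -0.12 (without vehicle mouse 2) to 1.33. The Ddit4 differences from neutrophils without cluster 26 were -1.18 in mono&prog and -2.17 in plasma cells. Cluster 26 is part of mono&prog and not of plasma cells or neutrophils. The cause of these shifts was not tested. With 2 mice per group and 14 to 40 megakaryocytes or 36 to 88 CAR cells per mouse, changes in the sparse types were not detectable at this depth unless large.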
